A study of Drosophila melanogaster with 12 samples.

Results

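Adult male flies of the wild-type strain Canton-S were placed on a control or a high-sugar diet for 2 days, and transcript levels of the 2 diets were compared across all genes named on the array. The comparison rests on 6 of the 12 arrays of the series, 3 per diet, each from a separate biological replicate of whole-animal RNA. The flies were 3 to 5 days old at the start and 5 to 7 days old at sacrifice. The remaining 6 arrays held males fed the same diets for 4 weeks (31 to 33 days old at sacrifice); they entered the estimate of the spread and a test of whether the diet effect differed between the times. The composition of the diets and the number of flies per replicate are not given in the sources used here. Of 11983 genes named by a single-gene probe set, 10418 lay above a filter on dim probe sets and were tested. In whole animals, fewer cells of a type and less RNA per cell cannot be told apart.

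Flies kept on high sugar become fat, resistant to insulin and short of water, and the diet has been used as a model of the metabolic disease that follows sugar overload. Dietary sugar is cut by gut glycosidases, taken up, and used for energy, stored as glycogen and fat, or turned into trehalose, the sugar of fly blood. Sugar sensing runs through the Mondo transcription factor, whose known targets include the regulator genes sugarbabe and cabut, while insulin-like peptides and the adipokinetic hormone set how stores are used. Surplus nitrogen leaves the fly as uric acid, made by way of purines, and purine synthesis draws on serine, glycine and folate-bound one-carbon units.

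The arrays were close to each other. Median intensities of the 6 arrays ran from 87.7 to 93.4, and Pearson's r across genes was 0.988 to 0.991 within a diet and 0.985 to 0.990 between diets. Intensities are linear values, and genes were compared as log2 intensity, so that a log2 fold change of -1 is a halving. Markers of the male reproductive tract were bright: the 19 accessory gland genes tested had a mean log2 level of 12.54 to 12.66 on control diet and 12.52 to 12.72 on high sugar. Of 15 yolk and eggshell genes named on the array, 11 were below the filter. The number of arrays limits precision: over all genes tested, the standard error of the diet difference had a median of 0.131 on the log2 scale.

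After 2 days the transcripts that differed were all lower on high sugar. By limma, 15 of 10418 genes (0.144%) were lower at a Benjamini-Hochberg adjusted p under 0.05 and 0 were higher (0%). The calls of each gene list below stand against this share. At this share 0 calls is the usual outcome for lists of these sizes and says little about their members. At an unadjusted p under 0.05 the counts were 537 lower (5.15%) and 329 higher (3.16%). The values of the 2 diets did not overlap for 797 genes that were lower (7.65%) and 685 that were higher (6.58%). Large values lay mostly on the lower side: 50 genes were at least 2-fold lower against 4 at least 2-fold higher, and the median log2 fold change of all genes was -0.004. The 15 genes had no overlap between the diets. The count depended on single arrays: it was 5, 4 or 10 without control array 1, 2 or 3, and 19, 1 or 4 without high-sugar array 1, 2 or 3. It was 8 without control array 3 and 7 without high-sugar array 2 of 4 weeks, and reached 23 without control array 1 of 4 weeks. It was 10 with the 6 arrays of 2 days alone, 5 of them among the 15.

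**Figure D1:**
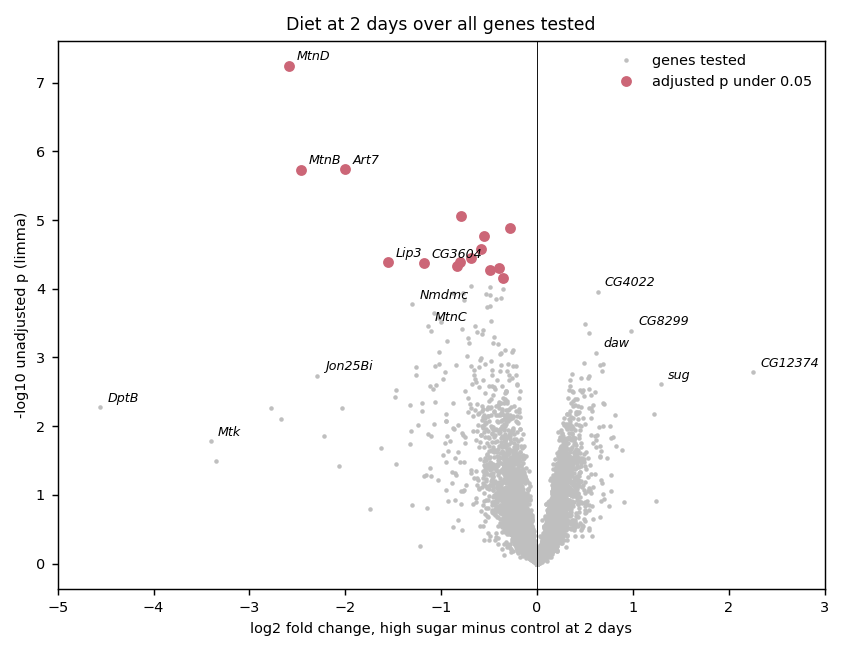
Log2 fold change at 2 days (high sugar minus control, x axis) against -log10 of the unadjusted limma p (y axis) for the 10418 genes tested; filled red points are the 15 genes past the adjusted threshold. All 15 lie left of 0, with MtnD, MtnB and Art7 at the top, while sug and CG12374 on the right did not pass.

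Metallothioneins, small cysteine-rich proteins that bind zinc, copper and cadmium, gave 2 calls among 4 genes tested, MtnD and MtnB (0.144% of all genes were called). MtnD had the smallest p of all genes. MtnD (gene 326270) had intensities of 2922, 4497 and 2992 on control diet and 665, 369 and 738 on high sugar. Its mean went from 3470.2 ± 890.2 to 591 ± 196 (SD, n = 3 arrays each), or -2.59 ± 0.23 (SE) on the log2 scale (limma adjusted p = 0.000591). MtnB (gene 42424) had intensities of 316, 419 and 333 on control diet and 72.1, 46.5 and 78.3 on high sugar, and changed by -2.46 ± 0.30 (SE) on the log2 scale (limma adjusted p = 0.00646). In both genes every control array was well above every high-sugar array, and high-sugar array 2 held the lowest value. The call of MtnD held without any 1 of the 12 arrays, while that of MtnB was lost without high-sugar array 2 (limma adjusted p = 0.0622) and with no filter on dim probe sets (0.0564).

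A further metallothionein gene, MtnC (gene 42416), had intensities of 3609, 4086 and 3814 on control diet and 1647, 1663 and 1923 on high sugar. Its groups did not overlap, and its log2 fold change was -1.14 ± 0.24 (SE), but it did not pass (limma adjusted p = 0.102); it passed with the 6 arrays of 2 days alone (0.00316) and without high-sugar array 1 or 3 of 4 weeks (0.0434 and 0.00514). MtnA, among the brightest genes on the arrays, stood at 12867, 14044 and 11184 on control diet and 11774, 12442 and 12239 on high sugar, with a log2 fold change of -0.06 that became 0.02 without control array 2. The gene of MTF-1, the transcription factor that switches metallothionein genes on in response to metal, had a log2 fold change of -0.06 ± 0.11 (SE).

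Among all metal-handling genes the calls were those of MtnD and MtnB. Of 33 tested, 2 fell (0.144% of all genes did), 0 rose and 31 did not pass. The median log2 fold change was -0.07, 5 genes were lower and 0 higher at an unadjusted p under 0.05 (15.2%, against 5.15% lower among all genes), and 5 were lower and 2 higher without overlap (15.2% and 6.06%, against 7.65% and 6.58%). Without high-sugar array 2 the first count was 3. Both ferritin subunit genes, which encode the iron store, had values close to 0: Fer1HCH had a log2 fold change of -0.04 ± 0.04 (SE) and Fer2LCH of -0.05 ± 0.05 (SE). The iron carrier genes Tsf1 (-0.13, with -0.44 in a second probe set and -0.29 as the mean of both), Tsf2 (-0.05) and Tsf3 (0.27), the iron importer gene Mvl (-0.15), the mitochondrial iron importer gene mfrn (0.06), the ferritin-like gene Fer3HCH (-0.01) and the multicopper oxidase gene Mco1 (-0.32) did not pass.

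No zinc or copper transporter gene passed. Among zinc transporters the lowest value was that of Zip42C.1, at 98.4, 123 and 113 on control diet and 33.9, 50.2 and 111 on high sugar, where high-sugar array 3 lay within the control range; its log2 fold change of -0.95 ± 0.40 (SE; -0.58 without high-sugar array 1) did not pass. The other ZIP-type zinc transporter genes ran from -0.28 (Zip89B) to 0.17 (Zip42C.2), with Zip71B at -0.25, foi at -0.13, Zip99C at -0.11, Catsup at -0.08, Zip88E at -0.07 and Zip48C at 0.12. The ZnT-type genes ran from -0.43 (ZnT49B, -0.20 without high-sugar array 3) to 0.17 (ZnT86D), with ZnT35C at -0.22, ZnT33D at -0.09, ZnT77C at -0.08, ZnT63C at 0.02 and ZnT41F at 0.04. The copper transporter genes Ctr1A (0.13), Ctr1C (0.10) and ATP7 (-0.05) did not pass either. Ctr1B was below the filter.

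**Figure D2:**
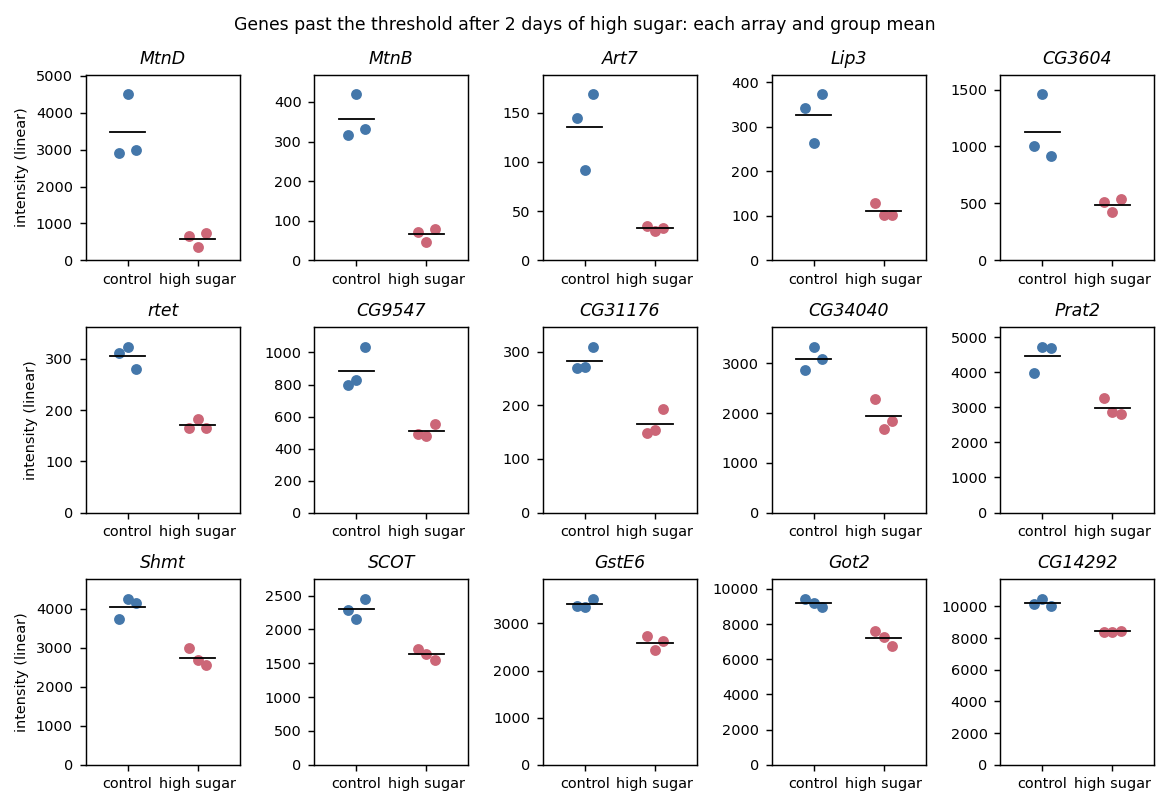
Linear intensity (y axis, from 0) of each of the 15 genes past the threshold in the 3 control arrays (blue) and the 3 high-sugar arrays (red) of 2 days; black lines are group means. In each panel the 3 high-sugar points lie below the 3 control points.

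The protein arginine methyltransferase gene Art7 (gene 37664) also fell. It was a dim gene, with intensities of 145, 91.7 and 168 on control diet and 35.1, 29.6 and 33.3 on high sugar, and its log2 fold change was -2.004 ± 0.25 (SE, limma adjusted p = 0.00646). Control array 2 was the lowest of its group, and the 3 high-sugar arrays lay within a narrow range. The call was lost without high-sugar array 2 (limma adjusted p = 0.0622) and with no filter (0.0564). Of the 8 methyltransferase genes of this family tested, 1 fell (0.144% of all genes did) and 7 did not pass, with a median of -0.06. Art9, at 22.3, 26.3 and 28.6 on control diet and 18.5, 15.7 and 18.3 on high sugar, had a log2 fold change of -0.55 ± 0.25 (SE).

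Folate and purine metabolism gave 1 call each, Shmt and Prat2. Of 20 genes of folate, one-carbon and methionine metabolism tested, 1 fell (0.144% of all genes did) and 19 did not pass. At an unadjusted p under 0.05, 13 were lower and 0 higher (65.0%, against 5.15% lower among all genes), 11 were lower without overlap (55.0%, against 7.65%), and the median log2 fold change was -0.39, from -0.43 to -0.31 without any 1 array of 2 days. These shares are a description and no independent evidence of a direction, here and for the other lists, because the lists were chosen with earlier results of these data known and 1 entry of this list was removed after values were seen. Shmt (gene 31524), which encodes serine hydroxymethyltransferase and passes one-carbon units from serine to folate, had intensities of 3729, 4255 and 4135 on control diet and 2983, 2698 and 2562 on high sugar. Its log2 fold change was -0.56 ± 0.08 (SE, limma adjusted p = 0.0292). That call depended on several arrays: leaving out control array 2, control array 3, high-sugar array 2, high-sugar array 3 or the second high-sugar array of 4 weeks ended it (limma adjusted p up to 0.147).

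Other folate enzymes came close to the threshold. Nmdmc, a methylenetetrahydrofolate dehydrogenase of mitochondria, had intensities of 1788, 1726 and 2307 on control diet and 851, 655 and 846 on high sugar, a log2 fold change of -1.31 ± 0.25 (SE) and a limma adjusted p of 0.0654. Its groups lay far apart, without overlap. The C1-tetrahydrofolate synthase gene pug, at 4749, 4979 and 4601 on control diet and 3894, 3226 and 3086 on high sugar, had a log2 fold change of -0.50 ± 0.09 (SE, limma adjusted p = 0.0553). The 3 enzymes that make serine from a glycolytic intermediate were looked up after these values were seen. The dehydrogenase gene CG6287 had a log2 fold change of -0.21 ± 0.06 (SE, limma adjusted p = 0.251), the aminotransferase gene CG11899 of -0.49 ± 0.09 (adjusted p = 0.0553) and the phosphatase gene aay of -0.49 ± 0.10 (adjusted p = 0.0655). None of the 3 passed, and none overlapped between diets.

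Purine genes had 13 of 15 values below 0. Of the 15 tested, 1 fell (0.144% of all genes did) and 14 did not pass. At an unadjusted p under 0.05, 7 were lower and 0 higher (46.7%, against 5.15% of all genes). Without overlap 6 were lower (40.0%, against 7.65%), and the median was -0.15. Prat2 (gene 38753), which encodes the amidotransferase of the first committed step of purine synthesis, had intensities of 3981, 4730.1 and 4688 on control diet and 3260.4, 2856 and 2818 on high sugar (log2 fold change -0.58 ± 0.09, SE; limma adjusted p = 0.0395). Its call was lost without the same arrays as that of Shmt (limma adjusted p up to 0.157). Paics, a synthesis enzyme that acts further along, stood at 5879, 6284 and 5796 on control diet and 5048, 4505 and 4509 on high sugar (log2 fold change -0.35, limma adjusted p = 0.0553). The xanthine dehydrogenase gene ry (rosy), whose enzyme makes uric acid, stood at 471, 468 and 500.5 on control diet and 354, 325 and 319 on high sugar (log2 fold change -0.53, limma adjusted p = 0.0553). Both came short of the threshold without overlap between the diets. Each passed under 5 of 24 alternatives, for example with arrays centred on their medians (limma adjusted p = 0.0216 and 0.0428). Under others the limma adjusted p rose as far as 0.281 for Paics and 0.209 for ry.

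**Figure D3:**
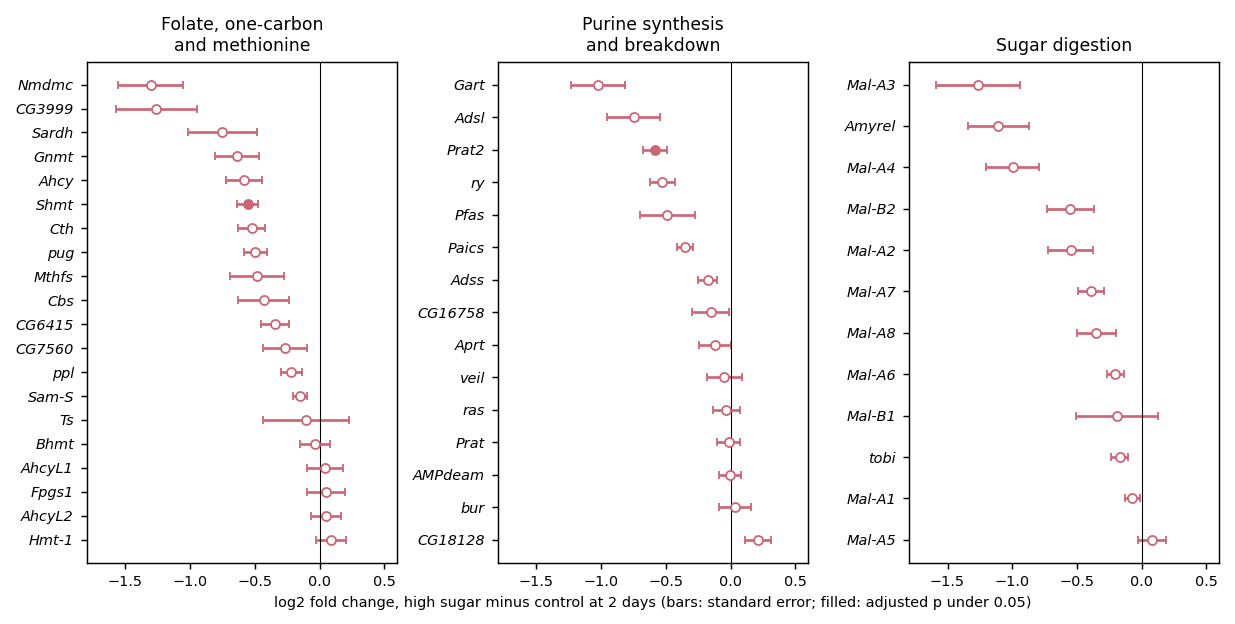
Log2 fold change at 2 days (x axis, bars are standard errors) of every tested member of 3 gene lists (rows): 20 genes of folate, one-carbon and methionine metabolism, 15 of purine metabolism and 12 of sugar digestion. Most members lie left of 0, and the filled points, Shmt and Prat2, are the members past the threshold.

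Enzymes that break down amino acids and ketone bodies gave 3 of the 15 calls out of 30 tested (0.144% of all genes were called). At an unadjusted p under 0.05, 12 were lower and 1 was higher (40.0% and 3.33%, against 5.15% and 3.16% of all genes), 15 were lower and 3 higher without overlap (50% and 10%, against 7.65% and 6.58%), and the median was -0.26 (-0.28 to -0.20 without any 1 array of 2 days). CG9547 (gene 33911), a glutaryl-CoA dehydrogenase by its similarity to the mammalian enzyme of lysine breakdown, had intensities of 795, 829 and 1037 on control diet and 492, 477 and 552 on high sugar (log2 fold change -0.80 ± 0.13, SE; limma adjusted p = 0.0397). SCOT (gene 38261), whose enzyme activates ketone bodies for use as fuel, had intensities of 2283, 2154 and 2451 on control diet and 1716, 1639 and 1542 on high sugar (log2 fold change -0.49 ± 0.08, SE; limma adjusted p = 0.0397). Got2 (gene 33373), a mitochondrial aspartate aminotransferase gene, had intensities of 9434, 9199.9 and 8995 on control diet and 7586, 7257 and 6741 on high sugar (log2 fold change -0.36 ± 0.06, SE; limma adjusted p = 0.0491).

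The changes of these 3 genes were under 2-fold. The calls of CG9547 and SCOT were lost without any 1 of the 6 arrays of 2 days or high-sugar array 2 of 4 weeks, and that of SCOT also without control array 3 of 4 weeks (limma adjusted p up to 0.166 and 0.202). The call of Got2 was lost without any of these arrays other than high-sugar array 1 of 2 days (up to 0.209). The proline dehydrogenase gene slgA was the 1 member with a higher value at an unadjusted p under 0.05, at 1389, 1253 and 1661 on control diet and 1752, 1792 and 1708 on high sugar (log2 fold change 0.30 ± 0.14, SE), and did not pass. The fat body, the tissue that carries out much of this metabolism, was followed by its markers. The 8 tested markers had a mean log2 level of 11.61 to 11.74 on control diet and 11.41 to 11.47 on high sugar. Of the 8, 6 were below 0 (75%, against 51.2% of all genes), and the median was -0.21. At an unadjusted p under 0.05, 2 were lower and 0 higher (25%, against 5.15% lower among all genes), and 0 were lower without control array 1. Of the 8 markers, 3 were lower without overlap (37.5%, against 7.65%). None passed, and their part in the metabolic results was not tested.

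Among digestive enzymes the lipase gene Lip3 was the 1 call. Lip3 (gene 41643) fell to 0.341 of its control level, with intensities of 342, 265 and 373 on control diet and 128, 103 and 101 on high sugar (log2 fold change -1.55 ± 0.26, SE; limma adjusted p = 0.0397). Leaving out any 1 of the 2-day arrays ended its call, as did, at 4 weeks, leaving out control array 3 or the second high-sugar array (limma adjusted p up to 0.185). Of 17 lipase genes 1 fell (0.144% of all genes did) and 16 did not pass. At an unadjusted p under 0.05, 4 were lower and 0 higher (23.5%, against 5.15% lower among all genes), and 2 were lower without high-sugar array 2. The median was -0.08, and it was -0.26 when control array 2 was left out and -0.04 when high-sugar array 2 was. CG6271 (-0.98 ± 0.26, SE) and CG8093 (-0.63 ± 0.21, SE) did not overlap between diets and did not pass.

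Of 12 sugar digestion genes (maltases, the amylase-related gene Amyrel and the glucosidase gene tobi), 0 passed. At an unadjusted p under 0.05, 9 were lower and 0 higher (75.0%, against 5.15% lower among all genes), 8 were lower without overlap (66.7%, against 7.65%), and 11 had a value below 0 (91.7%, against 51.2%). Their mean log2 level was 11.82 to 11.88 on control diet and 11.19 to 11.55 on high sugar. The maltase gene Mal-A4 (gene 35827) stood at 4174, 4977 and 4605 on control diet and 3498, 1545 and 2225 on high sugar. Its log2 fold change was -0.998 ± 0.20 (SE, limma adjusted p = 0.0955). High-sugar array 1 was the highest of its group and array 2 the lowest. Without high-sugar array 1 Mal-A4 passed at -1.30 (limma adjusted p = 0.00255). Without high-sugar array 2 its value was -0.71 (limma adjusted p = 0.197). It did not pass without any other array of 2 days (limma adjusted p up to 0.305). Amyrel stood at 721, 675 and 1209 on control diet and 463, 459 and 277 on high sugar (log2 fold change -1.11 ± 0.24, SE; limma adjusted p = 0.109). Mal-A7 stood at 7252, 6670.4 and 6831 on control diet and 5889, 4556 and 5469 on high sugar (log2 fold change -0.39, limma adjusted p = 0.209).

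Genes of protein digestion gave 0 calls (0.144% of all genes were called). Of 26 digestive serine protease genes 0 passed, 21 had a value below 0 (80.8%, against 51.2% of all genes), and the median was -0.18 (-0.05 without control array 1 and -0.27 without high-sugar array 3). The 5 others were above 0, up to 1.24. At an unadjusted p under 0.05, 4 were lower and 0 higher (15.4%, against 5.15% lower among all genes). Outside this list, the carboxypeptidase gene CG12374 (2.26) and the serine protease gene CG8299 (0.98) had values above 0 and are described below. Jon25Bi (gene 33708) stood at 2967, 423 and 1319 on control diet and 294, 249 and 192 on high sugar; its control values differed several-fold among themselves, and the log2 fold change of -2.29 ± 0.59 (SE) did not pass (limma adjusted p = 0.218). The trypsin gene lambdaTry (-0.53, -0.35 without high-sugar array 2) and Ser6 (-0.56) did not pass. The lysosomal mannosidase genes LManIII and LManVI had, like Jon25Bi, their lowest control value in array 2: LManIII stood at 949, 216 and 1086 on control diet and 94.0, 47.9 and 155 on high sugar, and LManVI at 2831, 779.6 and 2759 on control diet and 449, 174 and 761 on high sugar. Their log2 fold changes were -2.77 ± 0.83 and -2.23 ± 0.78 (SE), and neither passed. CG15533 stood at 567, 769.8 and 651 on control diet and 439, 104 and 288 on high sugar and had a log2 fold change of -1.48 ± 0.42 (SE; -0.89 without high-sugar array 2).

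Of the remaining called genes, CG3604 (gene 33593) had intensities of 1002, 1457 and 917 on control diet and 511, 422 and 535 on high sugar (log2 fold change -1.18 ± 0.20, SE; limma adjusted p = 0.0397). The gene rtet (42500), named for its likeness to a tetracycline transporter of bacteria, stood at 312, 324 and 279 on control diet and 165, 182 and 166 on high sugar (-0.83 ± 0.14, SE). CG31176 (gene 42554) stood at 269, 272 and 309 on control diet and 148, 153 and 193 on high sugar (-0.79 ± 0.11, SE), and CG34040 (gene 3885655) at 2864, 3338 and 3096 on control diet and 2278, 1686 and 1845 on high sugar (-0.69 ± 0.11, SE). A second probe set of CG34040 gave -0.59. The glutathione transferase gene GstE6 (gene 37111), of an enzyme family that conjugates toxic compounds, stood at 3362, 3354 and 3521 on control diet and 2723, 2429 and 2628 on high sugar (-0.40 ± 0.07, SE). CG14292 (gene 42264) was very bright and changed by the smallest amount of the 15, at 10129, 10483 and 10056 on control diet and 8406, 8405 and 8469.6 on high sugar (-0.28 ± 0.04, SE). All 6 lost their calls without single arrays of 2 days: rtet without any of the 6; CG31176 without each control array and without high-sugar array 2; CG34040, GstE6 and CG14292 without each control array and without high-sugar arrays 2 and 3; and CG3604 without any of the 6 other than control array 3. Control array 3 of 4 weeks ended those of rtet, CG3604, CG34040 and GstE6, high-sugar array 2 of 4 weeks those of CG34040 and GstE6, and high-sugar array 3 of 4 weeks that of GstE6 (limma adjusted p up to 0.185 over these genes).

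No gene passed on the higher side, and the values nearest to the threshold were modest. CG4022, named after its value was seen, had the smallest p among higher genes: its intensities were 74.9, 94.3 and 90.0 on control diet and 127, 122 and 152 on high sugar, with a log2 fold change of 0.63 ± 0.12 (SE) and a limma adjusted p of 0.0553. It passed under 3 of 24 alternatives (array weights, robust estimation and the stricter filter), and under others the limma adjusted p rose as far as 0.209. By size, the carboxypeptidase gene CG12374 led, at 881, 188 and 619.9 on control diet and 1936, 1808 and 3198 on high sugar (log2 fold change 2.26 ± 0.57, SE; limma adjusted p = 0.212), with control array 2 well below the others. The serine protease gene CG8299 stood at 28.5, 36.5 and 36.5 on control diet and 81.3, 55.2 and 65.5 on high sugar (0.98 ± 0.21, SE), and CG3348 at 272, 552 and 1036 on control diet and 1140.3, 1099 and 1563 on high sugar (1.22 ± 0.38, SE; 0.73 without control array 1). The other higher genes by size, most of them dim, were NimC4 (0.81), a receptor for the uptake of dying cells, Osi24 (0.88), CG13625 (0.77), Kah (0.70), Antdh (0.69) and Fcp3C (0.69). Osi24 was at the floor in 2 control arrays and NimC4 in 1, so those values understate the fold.

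Sugar-responsive regulators had 6 of 7 values above 0 and 0 past the threshold, with a median of 0.18 (0.09 to 0.27 without any 1 array of 2 days). The transcription factor gene sug (sugarbabe, gene 36424) stood at 192, 325 and 296 on control diet and 988, 398 and 688 on high sugar; the lowest high-sugar array, array 2, exceeded the highest control array by a small margin. Its log2 fold change was 1.29 ± 0.34 (SE, limma adjusted p = 0.251). The activin-like ligand gene daw (dawdle), a known responder to sugar, stood at 202, 257 and 201 on control diet and 339, 292 and 377 on high sugar (log2 fold change 0.61 ± 0.14, SE; limma adjusted p = 0.164). The repressor gene cbt (cabut) stood at 2342, 2421 and 2612 on control diet and 3205, 2478 and 2745 on high sugar and overlapped between diets (0.19 ± 0.10, SE). The sugar sensor gene Mondo had a value below 0, at 1225, 1262 and 1316 on control diet and 1011, 1142 and 952 on high sugar (-0.30 ± 0.09, SE; limma adjusted p = 0.328). Its partner gene bigmax (0.11), the nuclear receptor gene Hr38 (0.18, -0.08 without control array 2) and the nutrient-responsive peptide gene CCHa2 (0.07) overlapped between diets.

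Lists of central carbon metabolism gave 0 calls (0.144% of all genes were called). The medians were -0.05 for 12 glycolysis genes, -0.01 for 18 tricarboxylic acid cycle genes and -0.01 for 69 genes of oxidative phosphorylation, with 0 past the threshold in each. Of these, the named members were Tpi (-0.11), Pglym78 (-0.17) and the hexokinase gene Hex-A (0.17) of glycolysis, the malate dehydrogenase gene Mdh1 (-0.19) and the complex I gene ND-20 (0.16). Of the 12 glycolysis genes, 2 were lower and 1 higher at an unadjusted p under 0.05 (16.7% and 8.33%, against 5.15% and 3.16% of all genes). Without overlap 4 were lower and 1 higher (33.3% and 8.33%, against 7.65% and 6.58%). The 16 genes of gluconeogenesis, trehalose, glycogen and polyols had a median of -0.13, with 14 below 0 and 0 past the threshold. At an unadjusted p under 0.05, 6 of these 16 were lower and 1 was higher (37.5% lower, against 5.15% of all genes), and 7 were lower without overlap (43.8%, against 7.65%). In that list the sorbitol dehydrogenase gene Sodh1 stood at 7989.9, 7733 and 7588 on control diet and 6441, 6335 and 6219 on high sugar (-0.30 ± 0.08, SE), the glycogen debranching gene CG9485 had a value of -0.40, and the fructose bisphosphatase gene fbp one of -0.33. The phosphoenolpyruvate carboxykinase gene Pepck2 was higher, at 127, 161 and 153 on control diet and 216, 179.9 and 197 on high sugar (0.44 ± 0.13, SE), and did not pass.

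The 5 pentose phosphate genes had a median of -0.18, with the transaldolase gene Taldo at -0.22 and the transketolase gene CG8036 at -0.18. At an unadjusted p under 0.05, 2 of the 5 were lower and 0 higher (40%, against 5.15% lower among all genes). The 14 sugar transporter genes had a median of -0.11, with 12 below 0 and CG8249 (-0.40), CG8837 (-0.33) and CG1213 (-0.15) named. At an unadjusted p under 0.05, 4 of the 14 were lower and 0 higher (28.6%, against 5.15% lower among all genes), and 1 was lower without control array 2. None of these 19 genes passed.

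Fat and insulin genes gave 0 calls (0.144% of all genes were called). The 20 genes of fat synthesis and storage had a median of -0.03; the fatty acid synthase gene FASN2 stood at 1893, 1857 and 1872 on control diet and 3019, 2275 and 2101 on high sugar (0.38 ± 0.15, SE; 0.22 without high-sugar array 1), the acyltransferase gene mino had a value of -0.31 and the fat lipase gene bmm (brummer) one of -0.28. The 17 fatty acid oxidation genes had a median of -0.06 (0.003 after quantile normalization), with Echs1 (-0.29), yip2 (-0.24) and wal (-0.18) the lowest by p. At an unadjusted p under 0.05, 4 were lower and 0 higher (23.5%, against 5.15% lower among all genes), and 2 were lower without high-sugar array 2. Without overlap 4 were lower and 0 higher (23.5%, against 7.65% lower among all genes). The 19 genes of insulin and adipokinetic hormone signalling had a median of 0.05, and the amino acid transporter gene mnd (0.22) was the 1 member with an unadjusted p under 0.05.

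Antimicrobial peptide genes, which the fat body switches on through the Toll and Imd pathways in infection, had the most negative median of any list at -0.95, with 0 of 11 past the threshold and 5 lower and 0 higher at an unadjusted p under 0.05 (45.5%, against 5.15% lower among all genes). For DptB, Mtk and Drs most of the spread lay in the control arrays. DptB, a diptericin gene, stood at 5379, 1543 and 48.1 on control diet and 43.1, 23.2 and 30.7 on high sugar, so control array 3 resembled the high-sugar arrays while control array 1 was the brightest by a wide margin. Mtk (metchnikowin) stood at 10454, 5676 and 173 on control diet and 324, 215 and 125 on high sugar, and Drs (drosomycin) at 12397, 9999 and 2804 on control diet and 2695, 2431 and 2488 on high sugar. The log2 fold changes were -4.56 ± 1.36, -3.40 ± 1.24 and -1.47 ± 0.40 (SE). Without control array 3 these 3 genes passed, at -6.52, -5.23 and -2.13 (limma adjusted p = 0.0206, 0.0397 and 0.000632). Without control array 1 the same values were -3.12, -2.27 and -1.06, and none passed (limma adjusted p = 0.689, 0.822 and 0.605).

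The same order of control arrays was seen in other members. Def (defensin) stood at 1095, 302 and 99.3 on control diet and 123, 27.5 and 37.8 on high sugar, AttD (an attacin gene) at 414, 45.8 and 23.9 on control diet and 23.8, 19.3 and 26.1 on high sugar, and edin, a secreted peptide gene of the infection response, at 2329, 109 and 43.5 on control diet and 24.6, 26.3 and 16.0 on high sugar. BomS2, a bomanin gene, stood at 10139, 7383 and 5715 on control diet and 4975, 4630.2 and 4715 on high sugar, and Listericin at 823, 467 and 248 on control diet and 471, 118 and 238 on high sugar. Without control array 1 the log2 fold change of edin went from -3.35 to -1.66, that of AttD from -1.75 to -0.53 and that of Listericin from -0.95 to -0.53. In 9 of 11 antimicrobial peptide genes control array 1 was the highest of the control arrays (81.8%, against 31.6% of all genes). The list's mean log2 level was 10.42, 9.46 and 8.08 in the control arrays and 7.70 to 8.17 in the high-sugar arrays. Its median ran over -1.45 to -0.53 without any 1 array of 2 days. Drsl3 (-0.51, -0.24 without high-sugar array 3), Drsl4 (-0.10), Drsl5 (0.14) and CecB (-0.03, 0.35 without control array 1 and 0.11 without high-sugar array 1) overlapped between diets.

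**Figure D4:**
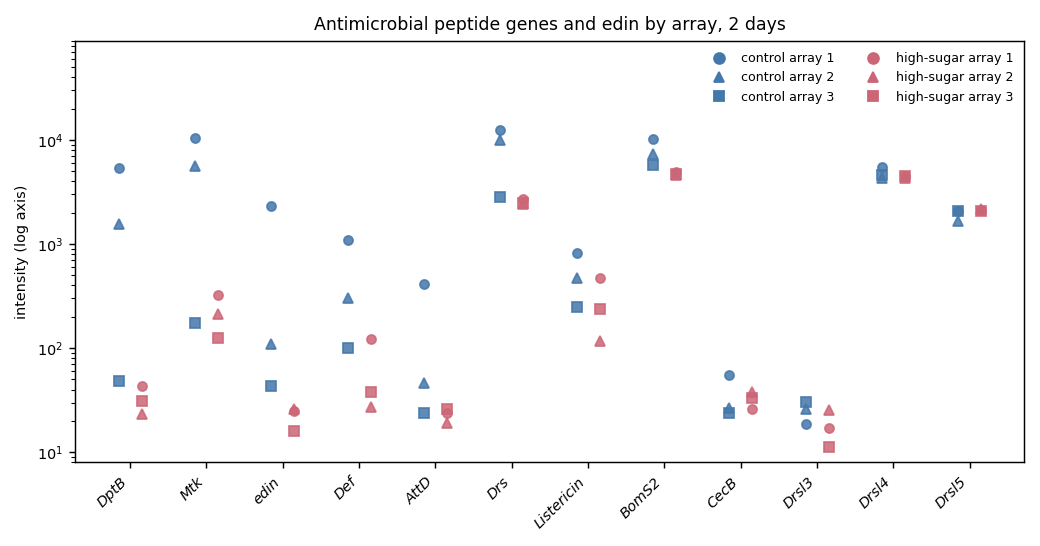
Intensity (y axis, log scale) of 11 antimicrobial peptide genes and edin in each array of 2 days; colours mark the diet and symbols the array number. Control arrays 1 and 2 stand above the rest for DptB, Mtk, Def and Drs, while control array 3 lies near the high-sugar arrays.

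Signalling genes of these pathways gave 0 calls (0.144% of all genes were called). Of 29 Toll and Imd genes 0 passed, 6 were lower and 0 higher at an unadjusted p under 0.05 (20.7%, against 5.15% lower among all genes), and the median was -0.07. The lower count was 3 without control array 1 and 8 without control array 3, and the median was -0.03 without control array 1. The members named by the rule act against peptidoglycan or the pathway itself. PGRP-LB, an amidase that degrades peptidoglycan, stood at 879, 677 and 426 on control diet and 417, 294 and 280.2 on high sugar (-0.96 ± 0.24, SE). The Imd repressor gene pirk stood at 611, 576 and 384 on control diet and 369.8, 200.4 and 189.7 on high sugar (-1.09 ± 0.30, SE), and PGRP-SC2 at 2193, 872 and 1021 on control diet and 479, 541 and 621 on high sugar (-1.20 ± 0.35, SE; -0.80 without control array 1). The 12 blood cell markers had a median of 0.05 and a mean log2 level of 8.03 to 8.10 on control diet and 7.92 to 8.22 on high sugar. Bbd, which is counted among the fat body markers above, stood at 11813, 10295 and 6777 on control diet and 7241, 6193 and 6938 on high sugar. Its log2 fold change was -0.47 with all arrays and -0.30 without control array 1. Without control array 3 it was -0.70, and Bbd passed (limma adjusted p = 0.0199). The 6 stress and JAK-STAT genes had a median of -0.13 and 0 calls.

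Detoxification and stress genes gave 1 call, that of GstE6 (0.144% of all genes were called). The medians were -0.04 for 77 cytochrome P450 genes, -0.07 for 33 glutathione transferase genes and -0.06 for 28 glycosyltransferase genes. At an unadjusted p under 0.05, 13 P450 genes were lower and 2 higher (16.9% and 2.6%, against 5.15% and 3.16% of all genes), with 7 lower without high-sugar array 2. Among them were Cyp309a1 (-0.52), Cyp6d4 (-0.57), Cyp28d1 (-0.43), Cyp6t3 (0.50) and Cyp4e1 (0.31). Of the transferases, GstD9 (-0.54, -0.32 without high-sugar array 3), GstE9 (-0.28), Ugt37B1 (-0.56), Ugt302C1 (-0.30) and Ugt35A1 (-0.25) did not pass. The 13 heat shock and chaperone genes had a median of -0.04 and the 13 antioxidant genes one of -0.01, with the thioredoxin reductase gene Trxr1 at -0.17.

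Gene groups of other functions and tissues had 0 calls (0.144% of all genes were called) and small medians. These were -0.02 for 41 cytoplasmic and 0.04 for 71 mitochondrial ribosomal protein genes, with RpL22-like at -0.29 and mRpS25 at 0.26. Testis markers (24) had a median of -0.05, with Mst84Dc at -0.15. The medians were -0.01 for the accessory gland, -0.03 for 9 Malpighian tubule markers and -0.21 for 4 yolk and eggshell genes, among them Vm26Aa (-0.58). Markers of muscle (18, 0.07, with 16 above 0), neurons (16, 0.08) and photoreceptors (15, 0.07) had medians slightly above 0. Of the neuron markers 6 were below 0 (37.5%) and of the photoreceptor markers 5 (33.3%, against 51.2% of all genes). The lowest photoreceptor marker had -0.93, and 2 were lower and 0 higher without overlap (13.3% lower, against 7.65%). The muscle median was -0.03 and the photoreceptor median -0.01 at their lowest without 1 array. Circadian clock genes had a median of 0.15 over 12 genes, with vri at 0.45 (a median of 0.04 and 0.24 for vri without control array 2). The lipoprotein transfer gene Mtp of the fat body list had a value of -0.25.

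**Figure D5:**
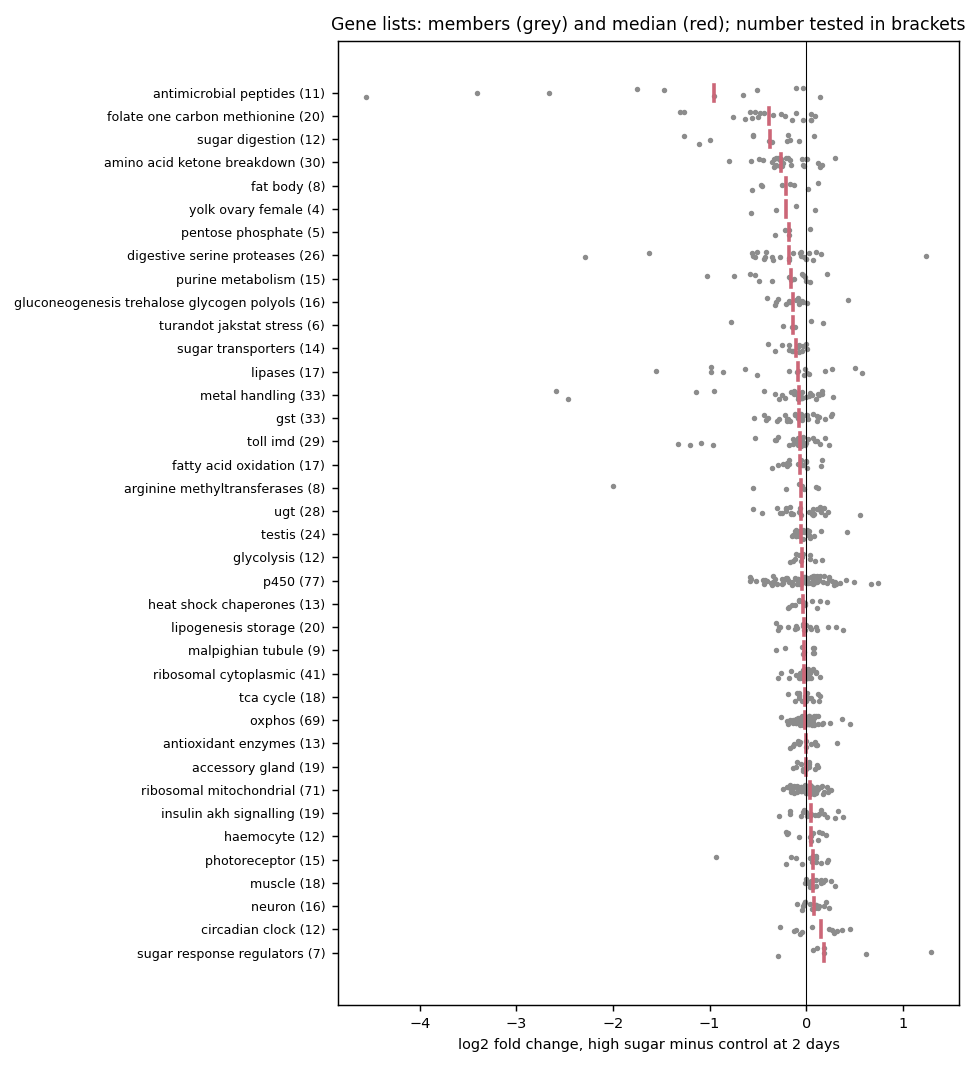
Log2 fold change at 2 days (x axis) of every tested member (grey points) of each gene list (rows, number tested in brackets), with the median in red and lists ordered by it. Antimicrobial peptides, sugar digestion, folate and one-carbon, and amino acid breakdown genes have the lowest medians, while the ribosomal and respiratory lists sit near 0.

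The diet effect at 2 days was set against that at 4 weeks, whose log2 fold changes come from other arrays. The spread of each gene was estimated from the arrays of both times together, so the calls at both times rest on the same estimate. A gene with a small spread is favoured for a call at both times, so the overlap of calls is no independent evidence. Of the 15 genes, 8 were also past the threshold at 4 weeks, where 201 of 10418 genes passed (1.93%). They make up 53.3% of the 2-day genes and 3.98% of the 4-week genes. All 8 had the same direction, and 14 of the 15 had a value below 0 at 4 weeks. The 8 were MtnD (2 days -2.59, 4 weeks -1.44), Lip3 (-1.55 and -2.63), CG9547 (-0.80 and -0.99), CG34040 (-0.69 and -0.82), Prat2 (-0.58 and -0.54), SCOT (-0.49 and -0.44), Shmt (-0.56 and -0.37) and Got2 (-0.36 and -0.29). The 7 others had 4-week values of -0.88 (MtnB), -0.65 (Art7), -0.70 (CG3604), -0.26 (GstE6), -0.15 (CG14292), -0.11 (CG31176) and 0.12 (rtet).

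The difference between the times was tested directly. It passed for 0 of 10418 genes by limma (0%), with 757 at an unadjusted p under 0.05 (7.27%). Among the 15 genes the smallest adjusted p of the difference was 0.43, so that no call is shown to belong to 2 days alone. At an unadjusted p under 0.05, 6 of the 15 differed between the times, and 12 were smaller in size at 4 weeks. The 15 were picked by their 2-day values, which enter this difference, so these counts are no separate evidence. The smallest adjusted p of all genes was 0.0962, shared by 2 genes named after their values were seen. The acyl-CoA binding protein gene Acbp3 had -0.77 at 2 days and -2.10 at 4 weeks, and the GATOR1 complex gene Iml1, whose product holds back TORC1 when amino acids are scarce, had 0.18 and 1.53. For the sugar-responsive regulators the 2-day and 4-week values were 1.29 and 1.84 (sug), 0.61 and 1.51 (daw) and 0.19 and 0.62 (cbt). For MtnC they were -1.14 and -0.15.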

How the data were processed

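Whole-animal RNA of adult Canton-S males was hybridized to Affymetrix arrays, 1 per biological replicate, in 4 groups of 3. Per the series text, the authors extracted and normalized probe set values with dChip (perfect match/mismatch model); the deposited unit is linear intensity, from 1 to 16579.5. Detection calls, the reference array and scan batches are not given in the sources used here, and the diets were compared as deposited.

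Before log2 transformation, values under the pooled 20th percentile were raised to it (intensity 11.78). Control probe sets (100) and the dimmest 30% (mean below log2 4.30) were removed. Of 18869 probe sets, 13647 had 1 gene in the array annotation, 402 several and 4720 none; the first class was tested, with the brightest probe set per gene, and 13544 matched RefSeq by gene ID. A model of 4 group means over the 12 arrays was fitted in R 4.3.3 by limma 3.58.1 (lmFit; eBayes with a mean-variance trend; degrees of freedom 8 residual, 5.00 prior), with Benjamini-Hochberg adjustment over 10418 genes. An exact test of 3 against 3 arrays cannot go below a p of 0.1 and was not run. Figures used matplotlib 3.10.9.

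Named genes were all genes past the threshold, the 10 with the largest log2 fold change each way among non-overlapping genes at an unadjusted p under 0.05, up to 3 each way per list at that p, all tested members of 3 lists (metals, sugar regulators, antimicrobial peptides), and up to 5 each way past the threshold for the difference between times. Genes named outside this rule are said to be so. P-values measure the spread between these arrays. Members and lists were chosen with earlier results of these data known. One entry of the folate list, a misassigned identifier, was removed after values were seen. Promoter and protein sequences were not used here. Same-numbered arrays of the diets at 2 days did not deviate together (r = 0.03, -0.16 and -0.004), so numbers were not treated as pairs. Alternatives were quantile normalization, median centring, a floor at percentile 10 or 30, a filter of 50% or none, no trend, robust estimation, array weights, a replicate block, 6 arrays alone, the mean of probe sets, and leaving out each array.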

Additional observations from a re-analysis of the deposited data

Results flagged for a closer look

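A pair of probe sets that the annotation does not tie to a single gene passed when every probe set above the filter was tested, out of 350 with several genes and 1436 with none. The probe set annotated to both CG42486 and CG14933 had intensities of 7376, 7524 and 7642 on control diet and 5836, 6089 and 5504 on high sugar. Its log2 fold change was -0.37 (limma adjusted p = 0.0180). The probe set with no gene in the annotation had 315, 309 and 285 on control diet and 184, 169 and 214 on high sugar, a log2 fold change of -0.69 (limma adjusted p = 0.0220). Both were lower without overlap, like the 15 named genes, and lay outside the gene comparison.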

How the results depend on the processing

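The number of genes lower on high sugar, 15 as reported, was 3 after quantile normalization, 4 with no filter (2 of them among the 15), 4 without a trend, 29 after median centring, 25 with robust estimation and 26 with array weights. The replicate block gave 4, and leaving out 1 array gave 1 to 23. Whether arrays of the same replicate number were handled together is not given in the sources used here. The stricter filter gave 22 lower. With 50% filtered, robust estimation or array weights 1 gene was higher (CG4022), and 0 in the other alternatives. The difference between times gave 1 gene with no filter and 0 to 3 without single arrays. All 15 genes kept their direction in 24 alternatives, and MtnD alone kept its call in each; MtnB and Art7 lost theirs in 2, the other 12 in 8 to 14 (limma adjusted p up to 0.279). Of 139 named genes, 14 that did not pass did so in some alternative and 16 changed sign in some. Quantile normalization turned Fer2LCH to 0.0017, and array weights turned ZnT63C to -0.0051 and Fer3HCH to 0.062. Leaving out 1 array turned the sign of others, with log2 fold changes ranging over -0.26 to 0.35 (CecB), -0.15 to 0.018 (MtnA), -0.080 to 0.42 (Hr38), -0.0049 to 0.10 (ZnT41F), -0.11 to 0.030 (Tsf2), -0.0062 to 0.064 (ZnT63C), -0.011 to 0.41 (Zip42C.2), -0.18 to 0.013 (Zip88E), -0.15 to 0.050 (ZnT77C), -0.087 to 0.12 (Fer3HCH), -0.042 to 0.24 (Ctr1C), -0.29 to 0.023 (Mvl), -0.17 to 2.8e-06 (ZnT33D), -0.0033 to 0.097 (mfrn) and -0.12 to 0.017 (ATP7). The median of all genes stayed between -0.03 and 0.02. With 3 arrays a group, changes of small size could not be told from the spread, and dim genes near the floor have understated folds; the causes of these shifts were not tested.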
